A study of Mus musculus with 21 samples.

Results

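The sarcomere and Z-disc genes are 37 genes for the filaments of the contractile unit of heart muscle and for the proteins that anchor, cap, link and fold them, taken by gene symbol from a table of 56691 mouse genes. Of these 37 genes, 36 had a mean of at least 0.5 FPKM (fragments per kilobase of exon, scaled to the library total) over the 21 libraries and were tested among 13990 genes. Tnni1, the slow skeletal troponin I, was below that level and is described only through its ratio to Tnni3. RNA-seq was made from hearts of mice in 4 groups to ask whether doxorubicin acts on the heart in the same way with and without a tumor. Control mice (n = 5) carried no tumor and, by the study's account, received normal saline, and DOX mice (n = 5) carried no tumor and received doxorubicin, an anthracycline drug against cancer, intraperitoneally at 5 mg/kg once a week for 3 injections. Tb mice (n = 6) carried a tumor grown from 4T1 cells, a mouse breast carcinoma line injected under the skin, and are described as given normal saline too, and Tb-DOX mice (n = 5) carried the same tumor and received the same doxorubicin course. Only 1 tumor line was used. Strain, sex and age were not given in the sources used here, and the labels name the 4T-1 line as the source of every library, where the study describes heart tissue.

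In a sarcomere, thick filaments of myosin slide along thin filaments of actin, and troponin and tropomyosin on the thin filament switch the movement on when calcium rises. The thin filaments are anchored at the Z-disc by alpha-actinin, titin spans from the Z-disc to the M-band at the middle of the thick filaments, and desmin and costameres tie the Z-discs to neighbouring myofibrils and to the cell membrane. Variants in many of these genes are a known cause of inherited cardiomyopathy, and troponins released into blood are the usual markers of cardiac injury.

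The libraries held 13521200 to 18601445 counts each. Levels are given as FPKM divided by the TMM factor of the library (0.881 to 1.14), and they can be compared between genes because they are per length of exon. The 37 genes took 5.87% to 8.36% of the counts of a Control library, 7.34% to 8.47% in DOX, 5.87% to 6.22% in Tb and 7.24% to 7.96% in Tb-DOX. The 8 cardiomyocyte markers (Myh6, Ryr2, Pln, Atp2a2, Slc8a1, Fabp3, Mb and Cox6a2) were all present, with a summed level of 15140.0 to 19384 in Control, 13164 to 17542 in DOX, 11710.0 to 15692 in Tb and 12704 to 15373 in Tb-DOX, while the 6 epithelial markers of a carcinoma summed to at most 2.56 in any library. Some libraries held the highest or lowest level of their group for many of the 36 genes. Control 3 was highest in 17 and Control 5 lowest in 18, DOX 5 highest in 17 and DOX 3 lowest in 21, Tb 5 highest in 15 and Tb 6 lowest in 15, and Tb-DOX 5 highest in 22 and Tb-DOX 4 lowest in 25. In bulk tissue, fewer cardiomyocytes and less RNA per cardiomyocyte cannot be told apart.

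Promoter windows of 7 members are printed because these members carry the main contrasts below. The libraries of Tnnt2, Actn2 and Ldb3 did not overlap in either doxorubicin comparison, and Csrp3, Myoz2, Synpo2l and Obsl1 differed in their doxorubicin response between tumor-free and tumor-bearing mice. Each window runs 5′ to 3′ from 250 bases before to 50 bases after a RefSeq transcription start (first start listed, build GRCm38.p6), at chr1:135836084-135836383 on the plus strand for Tnnt2, chr13:12340683-12340982 on the minus strand for Actn2, chr14:34588632-34588931 on the minus strand for Ldb3, chr7:48848002-48848301 on the minus strand for Csrp3, chr3:123034938-123035237 on the minus strand for Myoz2, chr14:20668305-20668604 on the minus strand for Synpo2l and chr1:75506403-75506702 on the minus strand for Obsl1. Capitals mark a match on either strand to the CArG box (bound by SRF), the MEF2 site, M-CAT (CATTCC, bound by TEAD factors) or a GATA motif (AGATAA).
Tnnt2: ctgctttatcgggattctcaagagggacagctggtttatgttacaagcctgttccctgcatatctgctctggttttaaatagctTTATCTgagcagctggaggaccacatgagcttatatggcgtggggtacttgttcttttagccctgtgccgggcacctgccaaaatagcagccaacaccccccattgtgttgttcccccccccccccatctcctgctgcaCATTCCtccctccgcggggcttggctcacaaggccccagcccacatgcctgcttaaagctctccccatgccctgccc
Actn2: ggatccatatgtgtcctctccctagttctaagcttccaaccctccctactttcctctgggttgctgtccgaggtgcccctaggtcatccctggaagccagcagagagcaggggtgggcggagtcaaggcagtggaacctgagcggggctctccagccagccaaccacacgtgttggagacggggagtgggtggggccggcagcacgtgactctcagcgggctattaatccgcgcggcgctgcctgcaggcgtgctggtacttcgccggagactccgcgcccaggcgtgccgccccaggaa
Ldb3: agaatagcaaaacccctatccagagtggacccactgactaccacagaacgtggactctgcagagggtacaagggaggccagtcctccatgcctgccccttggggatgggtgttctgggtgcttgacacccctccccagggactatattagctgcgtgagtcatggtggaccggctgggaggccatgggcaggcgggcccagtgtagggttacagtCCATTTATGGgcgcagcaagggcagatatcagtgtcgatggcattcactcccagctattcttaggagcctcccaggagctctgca
Csrp3: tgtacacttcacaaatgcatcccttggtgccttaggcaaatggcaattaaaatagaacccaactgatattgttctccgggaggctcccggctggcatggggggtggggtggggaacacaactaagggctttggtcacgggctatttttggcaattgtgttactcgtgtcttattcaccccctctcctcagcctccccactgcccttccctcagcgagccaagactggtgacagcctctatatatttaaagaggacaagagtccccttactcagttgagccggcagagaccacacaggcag
Myoz2: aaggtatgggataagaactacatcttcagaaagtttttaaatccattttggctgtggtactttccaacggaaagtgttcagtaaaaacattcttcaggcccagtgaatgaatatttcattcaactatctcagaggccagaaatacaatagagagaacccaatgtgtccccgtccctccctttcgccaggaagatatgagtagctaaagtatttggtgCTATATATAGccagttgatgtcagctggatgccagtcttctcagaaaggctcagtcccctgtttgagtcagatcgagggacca
Synpo2l: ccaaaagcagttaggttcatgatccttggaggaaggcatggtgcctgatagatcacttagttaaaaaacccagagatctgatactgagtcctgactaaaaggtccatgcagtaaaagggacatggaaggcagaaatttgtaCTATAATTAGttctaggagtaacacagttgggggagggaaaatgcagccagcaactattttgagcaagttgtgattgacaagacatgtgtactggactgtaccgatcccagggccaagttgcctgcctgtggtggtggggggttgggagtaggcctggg
Obsl1: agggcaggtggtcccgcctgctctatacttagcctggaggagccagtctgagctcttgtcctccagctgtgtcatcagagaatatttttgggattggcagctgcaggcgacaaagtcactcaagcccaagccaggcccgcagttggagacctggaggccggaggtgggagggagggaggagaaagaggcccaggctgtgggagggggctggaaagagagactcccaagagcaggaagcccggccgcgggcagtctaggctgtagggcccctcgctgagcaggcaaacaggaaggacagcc

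The Tnnt2 window held M-CAT at −27 and GATA at −166 from the start, Ldb3 a CArG box at −35, Myoz2 a MEF2 site at −33 and Synpo2l a MEF2 site at −109, and these letters were not in the windows of Actn2, Csrp3 and Obsl1. RefSeq windows were found for 32 of the 37 genes (44 windows), and none for Tcap, Nexn, Myom2, Lmod3 and Myot. A CArG box was in 15.9% of the 44 windows and in 1.63% of all 32851 windows, in Actc1, Dmd, Ldb3, Myl3, Myom1 and Nebl. A MEF2 site was in 15.9% against 3.19%, in Dmd, Mybpc3, Myom3, Myoz2, Synpo2l and Ttn. M-CAT was in 25.0% against 14.7% and the GATA motif in 13.6% against 11.2%. A match describes the letters of the window and not a bound site.

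Doxorubicin without a tumor was compared first (DOX against Control, edgeR quasi-likelihood test, adjusted p under 0.05 over all 13990 genes). Of the 36 genes, 16 rose and 5 fell, beside 18.0% of all genes tested called higher and 18.2% called lower. The 16 were 44.4% of the 36 and came from each structural layer: Tnnt2, Tnnt1 and Tnnc1 of the thin filament, Myom1, Myom2 and Myl3 of the thick filament and M-band, Tmod1 and Capzb of the filament ends, Actn2, Ldb3, Csrp3, Myoz2, Pdlim3, Pdlim5 and Synpo2l of the Z-disc, and Des. The 5 that fell were Obsl1, Ttn, Lmod3, Nexn and Unc45b, and they were 13.9% of the 36. The median log2 fold change of the 36 was 0.33, against 0.00 over all genes tested, with 29 above 0 and 7 below. With library totals in place of TMM, the median of all genes was −0.14 and that of the 36 was 0.18, 11 of the 36 were called higher and 5 lower, and 10.2% and 25.2% of all genes were called higher and lower. Only Myom2 and Synpo2l were called with a fold change of 2 or more (5.56% of the 36, beside 9.95% of all genes). The Control and DOX libraries did not overlap for 14 of the 36 (38.9%, beside 25.3% of all genes). Another 9 members passed the threshold when 1 library was left out (Actc1, Myl2, Myom3, Mypn, Nebl, Smpx, Smyd1, Tnni3 and Tpm1), and each is given below with its value.

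In tumor-bearing mice (Tb-DOX against Tb), 8 of the 36 genes rose and 0 fell at this threshold, beside 2.18% of all genes tested called higher and 2.54% called lower. DESeq2 and limma on log2(FPKM + 0.1) each also called 0 of the 36 lower, and at an unadjusted p under 0.05 edgeR gave 13 higher and 3 lower. The 8 were Mybpc3, Myl3, Myom1, Myom2 and Myom3 of the thick filament and M-band, Tnnt2, Actn2 and Ldb3, and they were 22.2% of the 36. Of the 36, 25 had a log2 fold change above 0 and the median was 0.13, against −0.02 over all genes. The Tb and Tb-DOX libraries did not overlap for 6 of the 36 (16.7%, beside 4.95% of all genes), and 0 of the 36 were called with a fold change of 2 or more (beside 1.11% of all genes). Without Tb-DOX 5, 3 of the 36 were called, and without Tb-DOX 3, 4 were called. Tnnc1, Tmod1, Des, Ttn and Flnc passed the threshold when 1 library was left out, and 7 members without a call, all with a log2 fold change within 0.15 of 0, turned sign. The 2 doxorubicin comparisons share no library. Below, "without the tumor" stands for DOX against Control and "with the tumor" for Tb-DOX against Tb, unless another comparison is named.

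**Figure D1:**
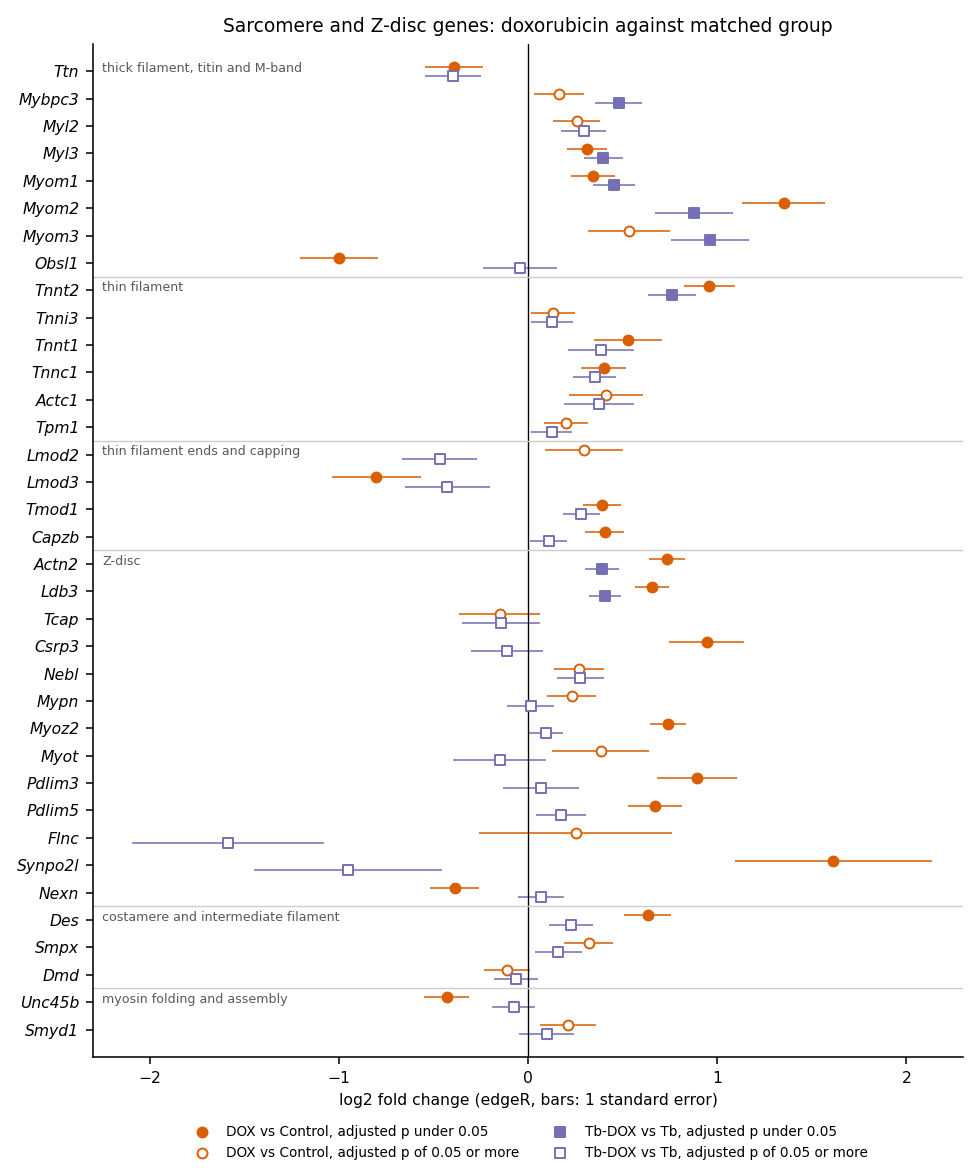
Log2 fold change of the 36 tested genes with 1 standard error (edgeR), grouped by role, for DOX against Control (circles) and Tb-DOX against Tb (squares), with filled symbols where adjusted p was under 0.05. Tnnt2, Myom1, Myom2, Myl3, Actn2 and Ldb3 are filled in both comparisons, and Csrp3 and Synpo2l lie above 0 without the tumor and near or below 0 with it.

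The thick filament, titin and M-band genes held 8 of the 36. Myom2, a myomesin that crosslinks thick filaments at the M-band (chr8:15107653-15183541, GRCm39), was at 153, 149.9, 173, 134 and 151 in Control and 330.5, 379, 335, 502 and 396 in DOX. It was at 70.8 at the lowest, 160.2 at the median and 193 at the highest in Tb and at 223, 304, 319, 180.3 and 363 in Tb-DOX. Each DOX library was above each Control library, whereas the lowest Tb-DOX library lay inside the range of Tb. Myom2 rose without the tumor (log2 fold change 1.35, SE 0.22 and adjusted p = 0.0001 in edgeR) and with it (log2 fold change 0.88, SE 0.21 and adjusted p = 0.0179 in edgeR). The second call was lost without Tb-DOX 3 (adjusted p = 0.052) and without Tb-DOX 5 (adjusted p = 0.0618).

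Myom1, the myomesin of all striated muscle, was at 155, 145, 171, 131 and 131 in Control and 191, 200.1, 127, 199.9 and 213 in DOX. It was at 106 at the lowest, 112 at the median and 129 at the highest in Tb and at 154, 158, 159.9, 140.4 and 179.8 in Tb-DOX. DOX 3 lay below the other DOX libraries and below all Control libraries, and the 5 Tb-DOX libraries lay above the 6 Tb libraries. Myom1 rose in both comparisons (log2 fold change 0.34, SE 0.12 and adjusted p = 0.0248 in edgeR without the tumor, log2 fold change 0.45, SE 0.11 and adjusted p = 0.0225 in edgeR with it). The first call was lost without Control 4, Control 5, DOX 2, DOX 4 or DOX 5 (adjusted p 0.0548 to 0.066), the second without Tb-DOX 3 or Tb-DOX 5 (0.0534 and 0.075). The Myom1 locus overlaps its neighbour Myl12a, and whether the counting used strand was not given.

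Myom3, the least abundant myomesin, was at 1.06, 0.773, 0.717, 0.746 and 0.755 in Control and 1.23, 1.83, 0.79, 0.784 and 1.25 in DOX, a range that overlapped. It was at 0.409 at the lowest, 0.571 at the median and 0.701 at the highest in Tb and at 1.11, 1.06, 0.848, 1.09 and 1.40 in Tb-DOX, and these libraries did not overlap. Myom3 rose with doxorubicin in tumor-bearing mice (log2 fold change 0.96, SE 0.21 and adjusted p = 0.011 in edgeR), while without the tumor the difference did not pass the test (log2 fold change 0.53, SE 0.21 and adjusted p = 0.0567 in edgeR). That difference passed without Control 1, DOX 3, DOX 4 or Tb 5 (log2 fold change 0.54 to 0.66, adjusted p 0.0242 to 0.0396) and was 0.32 (adjusted p = 0.236) without DOX 2. The difference between the 2 comparisons was 0.43 on the log2 scale (edgeR interaction, adjusted p = 0.347).

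Mybpc3, the cardiac myosin-binding protein C that tunes cross-bridge movement (chr2:90948489-90966861, GRCm39), was at 695, 706, 834, 723 and 715 in Control and 818, 803, 651, 836 and 1008 in DOX. It was at 482 at the lowest, 536 at the median and 670.5 at the highest in Tb and at 718, 849.8, 789, 589 and 975 in Tb-DOX. Tb-DOX 4 lay inside the range of Tb, and the Control and Tb libraries did not overlap, with Tb below. Mybpc3 rose with doxorubicin in tumor-bearing mice (log2 fold change 0.48, SE 0.13 and adjusted p = 0.0328 in edgeR), which was lost without any 1 of Tb 3, Tb 4, Tb-DOX 1, Tb-DOX 2, Tb-DOX 3 or Tb-DOX 5 (adjusted p 0.0503 to 0.11). Without the tumor it did not pass the test (log2 fold change 0.16, SE 0.13 and adjusted p = 0.344 in edgeR, and 0.09 to 0.25 with 1 library left out), nor did Tb against Control (log2 fold change −0.38, edgeR adjusted p = 0.0757).

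Myl3, the essential light chain of ventricular myosin, was at 2120.0, 2106, 2761, 2041 and 2015 in Control and 2658, 2874, 2269, 2875 and 3029.9 in DOX. It was at 1572 at the lowest, 1851 at the median and 2065 at the highest in Tb and at 2415, 2579, 2522, 2112 and 2655 in Tb-DOX. Control 3 was far above the other Control libraries, while each Tb-DOX library was above each Tb library. Myl3 rose in both comparisons (log2 fold change 0.31, SE 0.11 and adjusted p = 0.0267 in edgeR without the tumor, log2 fold change 0.40, SE 0.10 and adjusted p = 0.0284 in edgeR with it). The first call was lost without Control 1, Control 2, Control 4, Control 5, DOX 2, DOX 4 or DOX 5 (adjusted p 0.0545 to 0.0667) and the second without Tb 3, Tb-DOX 1, Tb-DOX 2, Tb-DOX 3 or Tb-DOX 5 (0.0572 to 0.0817).

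Myl2, the regulatory light chain and the most abundant of the 37 genes, was at 3361, 3288, 4584, 3286 and 3212 in Control and 4010.4, 4475, 3196, 4409.8 and 5087 in DOX. It was at 2667 at the lowest, 3020.0 at the median and 3150.0 at the highest in Tb and at 3628, 3787, 3619.6, 2918 and 4212 in Tb-DOX. Neither difference passed the test (log2 fold change 0.26, edgeR adjusted p = 0.112, and log2 fold change 0.29, edgeR adjusted p = 0.16), with Control 3 above and DOX 3 below the rest of their groups. The first passed without Control 3, at 0.37 (adjusted p = 0.0187), or without DOX 3, at 0.35 (adjusted p = 0.0266). Ttn, the giant spring protein titin, was at 65.6, 67.6, 44.6, 65.4 and 66.2 in Control and 54.3, 52.6, 27.4, 52.3 and 48.9 in DOX. Ttn fell without the tumor (log2 fold change −0.39, SE 0.15 and adjusted p = 0.0494 in edgeR), which was lost without any 1 of 17 libraries (every one but Control 3, DOX 1, DOX 2 and Tb 1) and was smallest without DOX 3 (log2 fold change −0.24, adjusted p = 0.131). Ttn was at 43.0 at the lowest, 53.6 at the median and 61.0 at the highest in Tb and at 39.6, 38.6, 42.2, 34.7 and 45.4 in Tb-DOX, a difference that did not pass (log2 fold change −0.40, edgeR adjusted p = 0.126) but passed without DOX 3, where its size was nearly the same, −0.39 (adjusted p = 0.0386).

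Obsl1, a cytoskeletal adaptor that binds titin and myomesin at the M-band (chr1:75455954-75483096, GRCm39), was at 9.27, 9.07, 11.3, 9.02 and 8.34 in Control and 4.18, 5.86, 4.13, 3.23 and 6.15 in DOX. It was at 3.27 at the lowest, 6.997 at the median and 9.03 at the highest in Tb and at 6.41, 5.23, 7.32, 6.87 and 6.85 in Tb-DOX. Every DOX library was below every Control library, while the Tb-DOX values lay inside the range of Tb. Obsl1 fell without the tumor (log2 fold change −0.998, SE 0.21 and adjusted p = 0.000896 in edgeR) and did not differ at the threshold with it (log2 fold change −0.04, SE 0.20 and adjusted p = 0.929 in edgeR), at −0.18 to 0.06 with 1 library left out. The difference between the 2 comparisons passed the test (interaction 0.95 on the log2 scale, SE 0.28 and adjusted p = 0.0398 in edgeR). It was lost without any 1 of 14 libraries (Control 1 to 5, DOX 1, 3 and 4, Tb 4 and 6, and Tb-DOX 1, 3, 4 and 5), at adjusted p of 0.0512 to 0.0754.

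**Figure D2:**
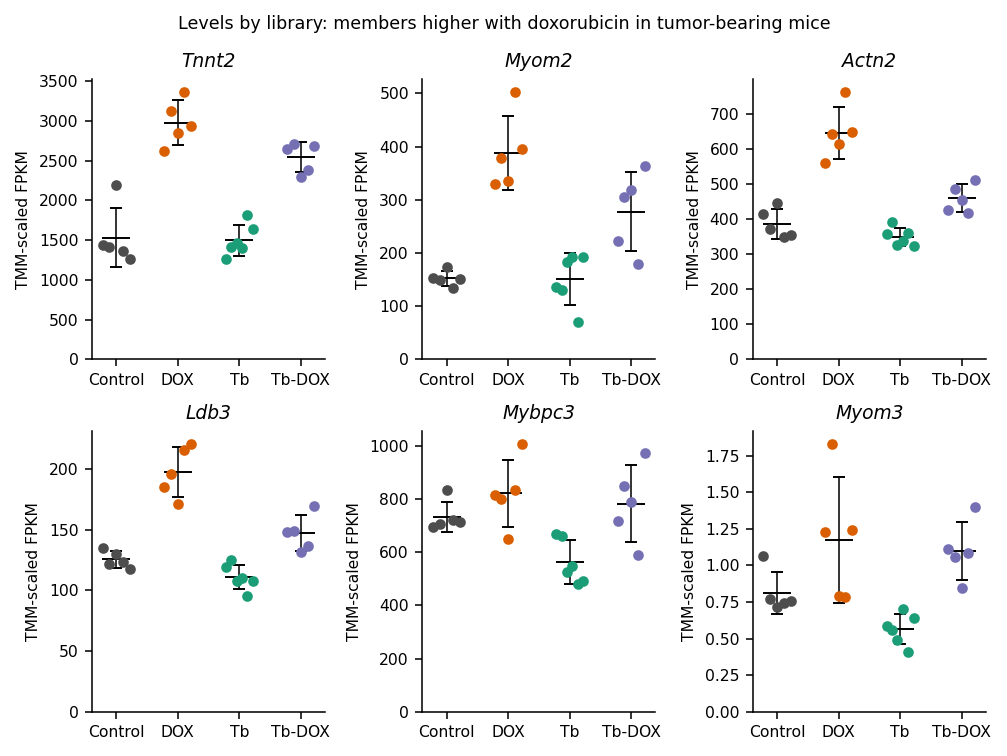
TMM-scaled FPKM in each library (points) with the group mean and SD (lines) for Tnnt2, Myom2, Actn2, Ldb3, Mybpc3 and Myom3 in Control, DOX, Tb and Tb-DOX. In Tnnt2, Actn2 and Ldb3 the points of each doxorubicin group lie above those of its matched group, and in Mybpc3 and Myom3 the gap is larger with the tumor than without it, a difference that did not pass the interaction test (adjusted p = 0.255 and 0.347).

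The thin filament genes held 6 of the 36. Tnnt2, the cardiac troponin T that holds the troponin complex on tropomyosin (chr1:135764092-135779998, GRCm39), was at 1437, 1414, 2192, 1359 and 1258 in Control and 2617, 3119.8, 2849, 3358 and 2931 in DOX. It was at 1263 at the lowest, 1442 at the median and 1813 at the highest in Tb and at 2645, 2702, 2298, 2382 and 2687 in Tb-DOX. Every library with doxorubicin was above every library without it, with or without the tumor, although Control 3 lay well above the other Control libraries. Tnnt2 rose in both comparisons (log2 fold change 0.96, SE 0.13 and adjusted p = 2.64e-05 in edgeR without the tumor, log2 fold change 0.76, SE 0.13 and adjusted p = 0.00201 in edgeR with it), a fold of 1.94 and 1.70. Leaving out any 1 of the 21 libraries kept both calls. Its promoter window, printed above, held M-CAT and GATA matches.

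Tnnc1, the calcium-binding troponin C of heart and slow muscle, was at 1914, 1802, 2819, 1864 and 1726 in Control and 2437, 2649.7, 2452, 2969 and 2843 in DOX. It was at 1741 at the lowest, 1888 at the median and 2358 at the highest in Tb and at 2300.5, 2666, 2404, 2501 and 2577 in Tb-DOX. Without Control 3 the Control libraries would lie below all DOX libraries, and the highest Tb library lay inside the range of Tb-DOX. Tnnc1 rose without the tumor (log2 fold change 0.40, SE 0.12 and adjusted p = 0.0117 in edgeR), and its difference with the tumor did not pass (log2 fold change 0.35, SE 0.11 and adjusted p = 0.0746 in edgeR). It passed without Tb 5, at 0.42 (adjusted p = 0.0306), or without Control 3, at 0.35 (adjusted p = 0.0179). Tnnc1 overlaps its neighbour Nisch.

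Tnnt1, the slow skeletal troponin T, was low, at 6.79, 7.42, 10.03, 7.77 and 7.65 in Control and 9.23, 9.21, 17.7, 8.88 and 12.1 in DOX. Its rise without the tumor (log2 fold change 0.53, SE 0.18 and adjusted p = 0.0272 in edgeR) was lost without Control 1, Control 2, Control 4, Control 5 or DOX 3, and without DOX 3 the log2 fold change was 0.32. Tnnt1 was at 4.79 at the lowest, 6.91 at the median and 9.07 at the highest in Tb and at 8.97, 10.8, 8.51, 8.01 and 9.21 in Tb-DOX, with overlapping libraries, and with the tumor it did not pass (log2 fold change 0.39, SE 0.17 and adjusted p = 0.21 in edgeR). Actc1, Tpm1 and Tnni3 (cardiac actin, alpha-tropomyosin and the inhibitory cardiac troponin I) did not pass the test in either comparison, with log2 fold changes of 0.41, 0.20 and 0.13 without the tumor and 0.37, 0.12 and 0.13 with it. Without the tumor each passed when 1 library was left out, Actc1 at 0.57 (adjusted p = 0.0168) without DOX 3, and Tpm1 at 0.29 (adjusted p = 0.0458) and Tnni3 at 0.29 (adjusted p = 0.018) without Control 3. With the tumor, Actc1 was at 0.21 (adjusted p = 0.603) without Tb-DOX 5 and Tpm1 at 0.05 (adjusted p = 0.812) without Tb 6. Actc1 is nearly identical in its coding sequence to Acta1, so the split of reads between them is uncertain.

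Troponin I and troponin T each have a slow skeletal form, used in the fetal heart or in slow muscle, and a cardiac form, and the slow-to-cardiac ratio was compared on the log2 scale (0.1 added to each FPKM). Tnni1 was found at 0 to 12 counts in Control libraries, 10 to 22 in DOX, 2 to 9 in Tb and 10 to 18 in Tb-DOX. The Tnni1 to Tnni3 ratio was at −13.2, −13.8, −12.9, −13.3 and −12.6 in Control and −12.5, −11.8, −11.5, −12.1 and −12.3 in DOX, and it was from −13.4 to −12.6 in Tb and at −12.6, −12.3, −11.9, −11.9 and −12.0 in Tb-DOX. The mean ratio was higher by 1.10 on the log2 scale in DOX than in Control (two-sided exact permutation test, p = 0.00794, the smallest that 5 against 5 can give, adjusted p = 0.026 over 6 tests) and by 0.96 in Tb-DOX than in Tb (exact permutation p = 0.00866, adjusted p = 0.026). The second was past the threshold no longer without Tb-DOX 2, 3, 4 or 5 (adjusted exact p = 0.057 each time). With 1 in place of 0.1 added to each FPKM, the differences were 0.23 and 0.11 and neither passed (adjusted exact p = 0.149). Tnni1 itself had group means of only 0.0763 (Tb) to 0.297 (DOX). With 0.5 added to each count, the differences were 2.16 and 1.715 and both passed (adjusted exact p = 0.0238). The size of the difference thus depends on the value added, and the ratio rests on a few Tnni1 counts.

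The Tnnt1 to Tnnt2 ratio was lower by 0.50 on the log2 scale in DOX than in Control (exact permutation p = 0.0794, adjusted p = 0.149) and by 0.37 in Tb-DOX than in Tb (exact permutation p = 0.0996, adjusted p = 0.149), and neither difference passed the test. Without DOX 3 the first was −0.68 (adjusted exact p = 0.0318), and without Tb 6 the second was −0.50 (adjusted exact p = 0.0476). In Tb against Control the ratios differed by 0.06 for troponin I (exact permutation p = 0.831) and by −0.19 for troponin T (exact permutation p = 0.424).

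**Figure D3:**
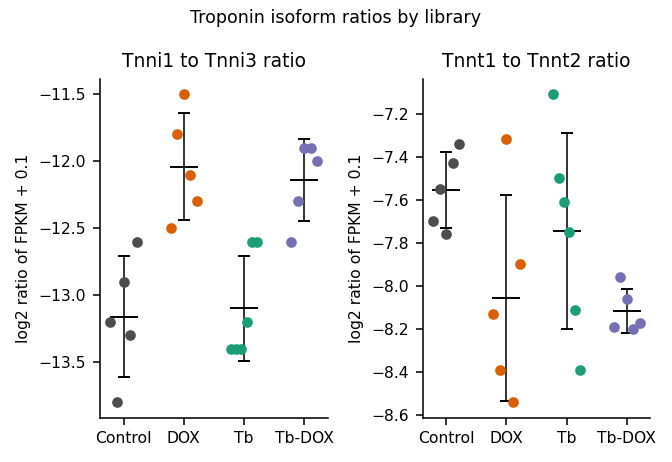
Log2 ratio of the slow skeletal to the cardiac form of troponin I (Tnni1 to Tnni3) and of troponin T (Tnnt1 to Tnnt2) in each library (points), with group mean and SD (lines). The troponin I ratio is higher in DOX than in Control by 1.10 and in Tb-DOX than in Tb by 0.96, on 0 to 22 Tnni1 counts per library, and the troponin T ratios overlap between groups.

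Genes of the thin filament ends numbered 4. Lmod3, a leiomodin that nucleates actin at the pointed end, was at 58.7, 59.1, 63.7, 68.7 and 75.0 in Control and 34.1, 26.3, 42.3, 30.1 and 53.7 in DOX. It was at 26.3 at the lowest, 51.6 at the median and 73.9 at the highest in Tb and at 39.2, 34.9, 40.4, 25.6 and 42.6 in Tb-DOX. The DOX libraries were all below Control, while the spread of Tb took in almost the whole Tb-DOX group. Lmod3 fell without the tumor (log2 fold change −0.80, SE 0.23 and adjusted p = 0.0109 in edgeR), and with it the difference did not pass (log2 fold change −0.43, SE 0.22 and adjusted p = 0.293 in edgeR) and was −0.27 (adjusted p = 0.52) without Tb 1.

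Lmod2, the cardiac leiomodin, was at 673, 530.3, 514, 418 and 393 in Control and 519.8, 394, 637, 763 and 786 in DOX. It was at 326 at the lowest, 444 at the median and 784 at the highest in Tb and at 344, 390.0, 342, 287 and 362 in Tb-DOX, where each library lay below each DOX library. Lmod2 did not pass the test in either doxorubicin comparison (log2 fold change 0.29, edgeR adjusted p = 0.278, and log2 fold change −0.47, edgeR adjusted p = 0.186), and the second was over 1.5 times smaller without Tb 5, at −0.26 (adjusted p = 0.403). Tmod1, which caps the pointed end, and Capzb, a subunit of the capping protein at the Z-disc end, rose without the tumor (log2 fold change 0.39, edgeR adjusted p = 0.00471, and log2 fold change 0.40, edgeR adjusted p = 0.00413), and their libraries did not overlap. With the tumor their log2 fold changes were 0.28 and 0.11 (0.07 to 0.21 with 1 library left out for Capzb, highest without Tb 5) and did not pass, while Tmod1 passed without Tb-DOX 4, at 0.36 (adjusted p = 0.0388). Tmod1 overlaps its neighbour Tstd2.

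The Z-disc was the largest role, with 13 genes, of which 7 rose and 1 fell without the tumor, while 2 rose with it. These were 53.8% and 7.69% of the 13 (beside 18.0% and 18.2% of all genes) and 15.4% with the tumor (beside 2.18%). Actn2, the alpha-actinin that crosslinks thin filaments at the Z-disc (chr13:12284312-12355641, GRCm39), was at 415, 371, 446, 348 and 354 in Control and 559, 641, 612, 761 and 646 in DOX. It was at 324 at the lowest, 348 at the median and 391 at the highest in Tb and at 425, 486, 453, 417 and 511 in Tb-DOX. The groups with and without doxorubicin did not overlap in either comparison, and each Tb-DOX library was below each DOX library. Actn2 rose without the tumor (log2 fold change 0.74, SE 0.10 and adjusted p = 1.4e-05 in edgeR) and with it (log2 fold change 0.39, SE 0.09 and adjusted p = 0.017 in edgeR). The second call was lost without Tb-DOX 5 (adjusted p = 0.058).

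Ldb3, a PDZ and LIM protein that binds alpha-actinin (chr14:34248560-34310639, GRCm39), was at 135, 122, 129.6, 123 and 118 in Control and 185, 195, 171, 215 and 220.2 in DOX. It was at 95.4 at the lowest, 109 at the median and 125 at the highest in Tb and at 148, 149, 131, 136 and 169.8 in Tb-DOX. As with Actn2, neither comparison overlapped and the Tb-DOX libraries lay between Tb and DOX. Ldb3 rose in both (log2 fold change 0.66, SE 0.09 and adjusted p = 2.32e-05 in edgeR without the tumor, log2 fold change 0.41, SE 0.09 and adjusted p = 0.0105 in edgeR with it), also without any 1 of the 21 libraries. The difference between the 2 comparisons was −0.25 for Ldb3 (interaction adjusted p = 0.189) and −0.34 for Actn2 (0.0919), and neither passed.

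Myoz2, a calsarcin that tethers calcineurin to alpha-actinin (chr3:122799855-122828664, GRCm39), was at 309.6, 295, 286, 284 and 264 in Control and 459, 488, 449.6, 540.1 and 466 in DOX. It was at 249.8 at the lowest, 316 at the median and 320.4 at the highest in Tb and at 316, 369, 332, 261 and 351 in Tb-DOX. The DOX libraries stood above those of the other 3 groups, which overlapped one another. Myoz2 rose without the tumor (log2 fold change 0.74, SE 0.09 and adjusted p = 1.21e-05 in edgeR), and with it the difference did not pass (log2 fold change 0.09, SE 0.09 and adjusted p = 0.598 in edgeR), at 0.05 to 0.17 with 1 library left out. The 2 comparisons differed (interaction −0.65 on the log2 scale, SE 0.13 and adjusted p = 0.0108 in edgeR), also without any 1 of the 21 libraries.

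Csrp3, the muscle LIM protein thought to sense stretch at the Z-disc (chr7:48480146-48497781, GRCm39), was at 323, 286, 316, 264 and 252 in Control and 477, 439.9, 589, 723 and 546 in DOX. It was at 236 at the lowest, 262 at the median and 580.3 at the highest in Tb and at 263, 283, 312, 248 and 322 in Tb-DOX. All DOX libraries were above Control, and the highest Tb value came from Tb 5, which lay far above the other 5 Tb libraries. Csrp3 rose without the tumor (log2 fold change 0.94, SE 0.20 and adjusted p = 0.001 in edgeR), and with it the difference did not pass (log2 fold change −0.11, SE 0.19 and adjusted p = 0.791 in edgeR) and was 0.17 (adjusted p = 0.415) without Tb 5. The 2 comparisons differed (interaction −1.06 on the log2 scale, SE 0.27 and adjusted p = 0.0251 in edgeR), and without Tb 5 the interaction was −0.78 (adjusted p = 0.00748).

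Synpo2l, an actin-binding protein of the Z-disc (chr14:20709014-20718422, GRCm39), was at 49.2, 28.7, 36.8, 32.4 and 29.5 in Control and 44.4, 27.1, 205, 107 and 157 in DOX. It was at 28.1 at the lowest, 34.9 at the median and 201 at the highest in Tb and at 27.4, 23.0, 33.8, 31.7 and 43.6 in Tb-DOX. DOX 3, DOX 4, DOX 5 and Tb 5 were well above all other libraries, while DOX 1 and DOX 2 lay inside or below Control. Synpo2l rose without the tumor (log2 fold change 1.61, SE 0.52 and adjusted p = 0.0196 in edgeR), which was lost without DOX 3 (log2 fold change 1.25, adjusted p = 0.0739) and in limma on log2 FPKM (adjusted p = 0.0793 with 0.1 added). With the tumor its difference did not pass (log2 fold change −0.95, SE 0.50 and adjusted p = 0.291 in edgeR) and was −0.07 (adjusted p = 0.941) without Tb 5. The interaction (−2.56 on the log2 scale, SE 0.72 and adjusted p = 0.0323 in edgeR) was −1.69 without Tb 5 (adjusted p = 0.0336), over 1.5 times smaller, and was lost without any 1 of Control 2, Control 4, Control 5, DOX 3, Tb-DOX 1, Tb-DOX 2 or Tb-DOX 3 (adjusted p 0.0501 to 0.0694). It was also lost in 6 of 12 other settings (adjusted p 0.0515 to 0.125), among them limma on log2(FPKM + 0.1), where it was −1.66 (adjusted p = 0.121).

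**Figure D4:**
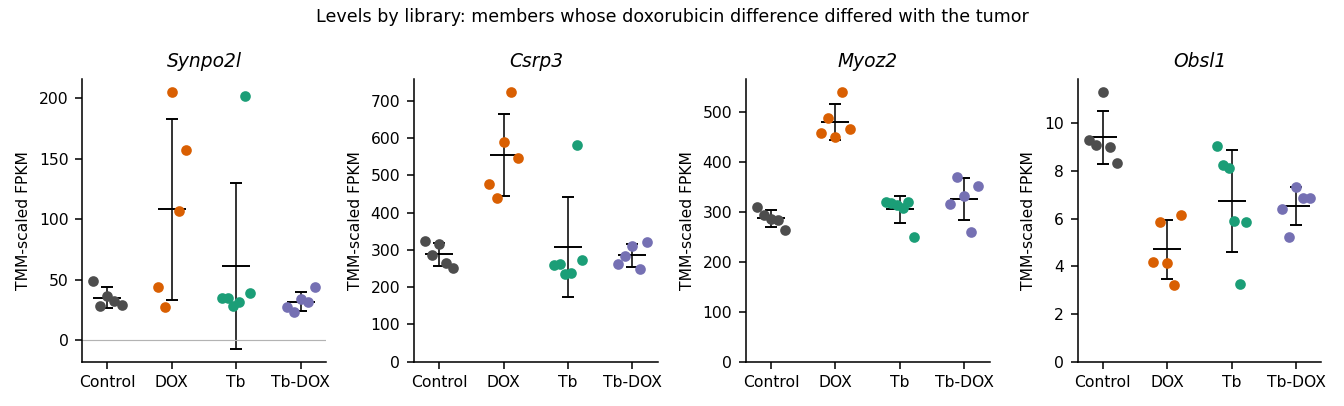
TMM-scaled FPKM in each library (points) with the group mean and SD (lines) for Synpo2l, Csrp3, Myoz2 and Obsl1, whose doxorubicin difference differed with the tumor (edgeR interaction, adjusted p under 0.05). Csrp3 and Myoz2 are high in the 5 DOX libraries and not in Tb-DOX, Obsl1 is low in DOX and in some Tb libraries, and 1 Tb library reaches 201 for Synpo2l.

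Pdlim5, a PDZ and LIM protein that brings kinases to the Z-disc, was at 143, 121, 127, 118 and 99.2 in Control and 206, 229, 144, 214 and 173 in DOX. It was at 90.4 at the lowest, 109 at the median and 144 at the highest in Tb and at 133, 119.5, 101, 138 and 136 in Tb-DOX. DOX 3 was the lowest DOX library and lay just above the highest Control library. Pdlim5 rose without the tumor (log2 fold change 0.67, SE 0.14 and adjusted p = 0.000965 in edgeR), and with it the difference did not pass (log2 fold change 0.17, SE 0.13 and adjusted p = 0.494 in edgeR) and was 0.27 (adjusted p = 0.238) without Tb 5.

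Pdlim3, an alpha-actinin-binding protein of the same family, was at 4.05, 4.25, 3.48, 4.49 and 3.26 in Control and 9.92, 9.23, 5.24, 5.80 and 6.08 in DOX. It was at 3.40 at the lowest, 4.51 at the median and 7.85 at the highest in Tb and at 5.27, 4.51, 5.38, 6.21 and 6.56 in Tb-DOX. The DOX libraries were above all Control libraries, and the Tb range covered that of Tb-DOX. Pdlim3 rose without the tumor (log2 fold change 0.89, SE 0.21 and adjusted p = 0.00269 in edgeR), and with it the difference did not pass (log2 fold change 0.07, SE 0.20 and adjusted p = 0.882 in edgeR), at −0.03 to 0.22 with 1 library left out, lowest without Tb 4 and highest without Tb 5. Its interaction was −0.82 on the log2 scale, SE 0.29 and adjusted p = 0.074 in edgeR, and it passed without Tb 4, at −0.93 (adjusted p = 0.0432). Tcap, which caps titin at the Z-disc and was the most abundant Z-disc gene, was at 1205, 1183, 1782, 1084 and 694 in Control and 934, 1229, 696, 1135 and 1364 in DOX, and did not pass (log2 fold change −0.15, edgeR adjusted p = 0.612, and −0.29 to 0.05 with 1 library left out, highest without Control 3). It was at 541 at the lowest, 836 at the median and 1072 at the highest in Tb and at 976, 755, 716, 779.8 and 550.3 in Tb-DOX, with overlapping libraries. With the tumor its log2 fold change was −0.15 (adjusted p = 0.742), and −0.25 to −0.05 with 1 library left out.

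Nexn, an actin-binding protein of the Z-disc, fell without the tumor (log2 fold change −0.39, SE 0.13 and adjusted p = 0.024 in edgeR), which was lost without Control 3, DOX 3 or DOX 4 (adjusted p 0.0567 to 0.0944), and with it had a log2 fold change of 0.07 (−0.0048 to 0.11 with 1 library left out). The Nexn locus overlaps its neighbour Gm43185. Nebl, Mypn and Myot did not pass in either comparison, at 0.27, 0.23 and 0.38 without the tumor and 0.28, 0.01 and −0.15 with it. Without DOX 3, Nebl and Mypn passed without the tumor, at 0.40 (adjusted p = 0.00965) and 0.34 (adjusted p = 0.0339), while Myot was at 0.25 (adjusted p = 0.494) without DOX 1 and, with the tumor, at 0.03 (adjusted p = 0.966) without Tb 5. Flnc, the muscle filamin, is named because of 1 value, which was chosen after the values were seen. It was at 207 in Tb 5 and at 20.4 to 29.0 in the other Tb libraries, and its difference with the tumor did not pass (log2 fold change −1.59, SE 0.51 and adjusted p = 0.0739 in edgeR). That difference was −0.39 (adjusted p = 0.306) without Tb 5, and it passed without Tb 6, at −1.76 (adjusted p = 0.0393). Without the tumor Flnc had a log2 fold change of 0.25 (adjusted p = 0.73), and without DOX 5 it was −0.14 (adjusted p = 0.858).

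Of the 3 genes for costameres and intermediate filaments, Des, which encodes desmin, was at 349, 307, 402, 288 and 291 in Control and 451, 487, 529, 599.6 and 473 in DOX. It was at 292 at the lowest, 308 at the median and 459 at the highest in Tb and at 361, 444, 401, 357 and 391 in Tb-DOX. Desmin was higher in each DOX library than in any Control library, and Tb 5 stood above the other Tb libraries. Des rose without the tumor (log2 fold change 0.63, SE 0.12 and adjusted p = 0.000554 in edgeR), and with it the difference did not pass (log2 fold change 0.23, SE 0.12 and adjusted p = 0.291 in edgeR) but passed without Tb 5, at 0.34 (adjusted p = 0.0485). Smpx, a small stretch-related muscle protein, missed the threshold without the tumor (log2 fold change 0.32, SE 0.13 and adjusted p = 0.0557 in edgeR) and had a log2 fold change of 0.16 with it (adjusted p = 0.497), which was 0.10 (adjusted p = 0.755) without Tb-DOX 5. The first passed without DOX 3, at 0.44 (adjusted p = 0.00546), or without Tb 5, at 0.33 (adjusted p = 0.0354), and was 0.21 (adjusted p = 0.18) without DOX 5. Dmd, the gene for dystrophin, had log2 fold changes of −0.11 (adjusted p = 0.492) and −0.06 (0.815), at 8.95, 10.1, 6.10, 8.23 and 6.66 in DOX and 6.10, 6.06, 6.11, 5.75 and 7.01 in Tb-DOX. The first was −0.21 to −0.02 with 1 library left out and the second −0.11 to −0.02 with 1 library left out.

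Unc45b, the chaperone that folds myosin heads, was at 33.9, 34.0, 47.4, 35.4 and 36.3 in Control and 28.6, 30.1, 27.1, 24.2 and 28.7 in DOX. It was at 21.3 at the lowest, 27.9 at the median and 36.1 at the highest in Tb and at 25.3, 26.5, 28.4, 24.5 and 27.7 in Tb-DOX. The DOX libraries lay below all Control libraries, and 5 of the 6 Tb libraries did too. Unc45b fell without the tumor (log2 fold change −0.43, SE 0.12 and adjusted p = 0.00781 in edgeR), and with the tumor its difference did not pass (log2 fold change −0.08, SE 0.11 and adjusted p = 0.758 in edgeR), at −0.14 to 0.01 with 1 library left out. Smyd1, a methyltransferase that assists myosin assembly, was at 105, 98.2, 99.6, 108 and 97.6 in Control and 122, 139, 72.5, 106 and 149.7 in DOX, and did not pass (log2 fold change 0.21, edgeR adjusted p = 0.284) but passed without DOX 3, at 0.35 (adjusted p = 0.0379). It was at 72.5 at the lowest, 98.6 at the median and 112 at the highest in Tb and at 102, 106, 102, 80.1 and 120.4 in Tb-DOX, with overlapping libraries, and with the tumor it did not pass either (log2 fold change 0.10, edgeR adjusted p = 0.751), at 0.03 to 0.18 with 1 library left out. Smyd1 overlaps its neighbour Krcc1.

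Whether the doxorubicin difference itself differed with the tumor was tested as an interaction, the Tb-DOX against Tb difference minus the DOX against Control difference. Of the 36 genes, 1 was higher (Obsl1) and 3 were lower (Synpo2l, Csrp3 and Myoz2), which is 2.78% and 8.33% of the 36, beside 3.95% and 5.0% of all genes tested. With an absolute log2 value of at least 1 there were 2, Synpo2l and Csrp3 (5.56% of the 36, beside 3.89% of all genes). The count of 4 went down to 2 without any 1 of Control 2, Control 4, Control 5, DOX 3, Tb-DOX 1 and Tb-DOX 3, and Pdlim3 passed without Tb 4. The 3 lower ones were genes of the Z-disc, and the median of the 36 was −0.11, against 0.00 over all genes. With library totals in place of TMM, 17 of the 36 values were below 0 where TMM gave 24, and the median of the 36 was 0.04 (and 0.07 in limma on log2(FPKM + 0.1)), where the median of all genes was 0.14 and the calls over all genes moved from 3.95% higher and 5.0% lower to 6.45% higher and 2.02% lower. For the other 32 genes no difference between the comparisons was found, which does not show that they responded alike.

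The tumor alone (Tb against Control) was tested on the same 36 genes. By edgeR 0 were higher and 2 were lower, Unc45b and Dmd (5.56% of the 36), beside 5.0% of all genes tested called higher and 1.29% called lower. Of the 36, 9 were above 0 and 27 below, with a median of −0.13 against −0.01 over all genes. All 8 thick filament, titin and M-band genes were below 0 (median −0.30, 0 called), while 7 of the 13 Z-disc genes were above. With library totals 25 of the 36 were below 0, and the median was −0.09 against 0.03. Dmd, whose protein dystrophin links actin to the membrane complex, was at 10.1, 9.30, 6.84, 8.54 and 8.48 in Control and 5.80 at the lowest, 6.40 at the median and 7.42 at the highest in Tb. Dmd was lower in Tb than in Control (log2 fold change −0.42, SE 0.12 and adjusted p = 0.0327 in edgeR), as was Unc45b (log2 fold change −0.42, SE 0.11 and adjusted p = 0.0273 in edgeR), with overlapping libraries in both. The Dmd call was lost without Control 1, 2, 4 or 5 or Tb 3, 4, 5 or 6 (adjusted p 0.0542 to 0.104), and that of Unc45b without Control 3 or Tb 4, 5 or 6 (0.0548 to 0.103). In 7 of 13 other settings the Unc45b call was lost too (adjusted p 0.06 to 0.166), with library totals, with only the groups compared and in limma among them, and the Dmd call in 2. By DESeq2, 4 of the 36 were called lower and 0 higher, and by limma on log2(FPKM + 0.1) 0 in either direction, while at an unadjusted p under 0.05 edgeR gave 1 higher and 10 lower. With 1 library left out, Mybpc3 passed without Tb 1 or Tb 2 and Myom1 without DOX 3.

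Among doxorubicin-treated mice (Tb-DOX against DOX), 0 of the 36 genes were higher and 9 were lower with the tumor (25.0% of the 36), beside 9.52% of all genes tested called higher and 7.93% called lower. DESeq2 called 0 higher and limma on log2(FPKM + 0.1) called 1, and at an unadjusted p under 0.05 edgeR gave 1 higher and 12 lower. The 9 were Actn2, Ldb3, Csrp3, Myoz2, Pdlim5 and Synpo2l of the Z-disc, Lmod2, Des and Dmd. In order of size, the log2 fold changes were −1.76 for Synpo2l (edgeR adjusted p = 0.024), −0.96 for Csrp3 (0.00219), −0.85 for Lmod2 (0.00789), −0.62 for Pdlim5 (0.0041) and −0.56 for Myoz2 (0.000296), and the other 4 were smaller. The median of the 36 was −0.23, against −0.01 over all genes, and 34 of 36 were below 0. With library totals that median was −0.04 with 22 of 36 below 0, 1 member was called higher and 6 lower, and the median of all genes was 0.18, with 18.0% of them called higher and 2.31% lower. This comparison shares its libraries with those above, so its calls are not separate evidence. The calls of Des (without any 1 of 7 libraries), Dmd (8) and Synpo2l (4) were lost when 1 library was left out, the last at adjusted p = 0.0832 without DOX 3. Without Tb 5, Flnc and Myom2 passed as lower and Obsl1 as higher, so that 1 of the 36 was called higher and 11 lower. Myom1 and Ttn passed as lower without DOX 3.

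**Figure D5:**
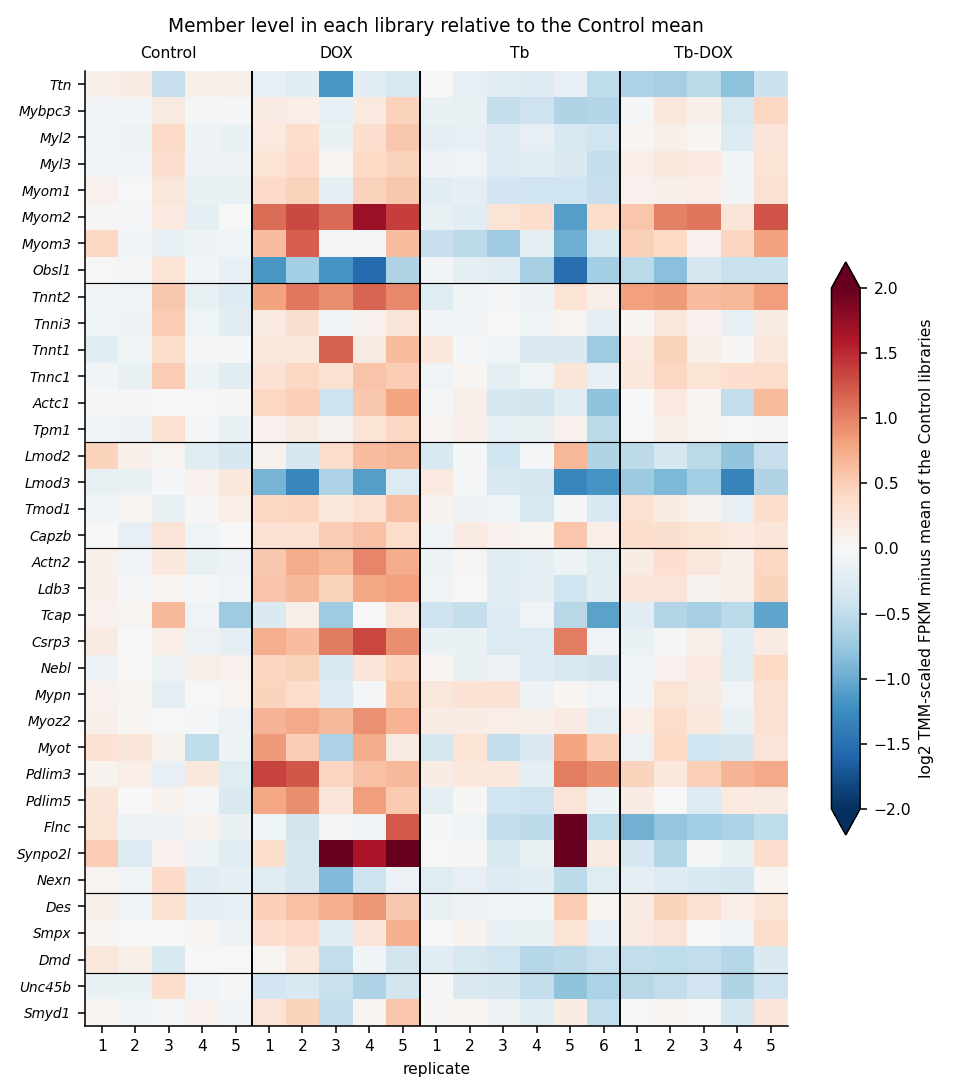
Level of each of the 36 tested genes (down, by role) in each of the 21 libraries (across, by group), as log2 of the scaled FPKM minus the mean of the Control libraries, with colours limited at −2 and 2. Most genes of the DOX group lie above the Control mean, DOX 3 is the lowest DOX library in 21 genes, and Tb 5 stands out in Flnc, Synpo2l and Csrp3.

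Related genes outside the 37 were read beside them. Of 23 other filament genes tested, 7 rose and 6 fell with doxorubicin without the tumor, and 3 rose and 2 fell with it. These were 30.4% and 26.1% of the list (beside 18.0% and 18.2% of all genes) and 13.0% and 8.7% with the tumor (beside 2.18% and 2.54%). Myh7, the slow beta-myosin of the fetal heart, rose without the tumor (log2 fold change 2.43, edgeR adjusted p = 8.82e-05), as did Myh6, the alpha-myosin of the adult mouse heart and the most abundant of the list (log2 fold change 0.43, edgeR adjusted p = 0.00341). Myh6 also rose with doxorubicin in tumor-bearing mice (log2 fold change 0.42, edgeR adjusted p = 0.0211), a call lost without Tb-DOX 1, 2, 3 or 5 (adjusted p 0.0516 to 0.0633). Myh6 and Myh7 share long stretches of sequence, so the split of reads between them is uncertain. Tpm4, a non-muscle tropomyosin, fell in both (log2 fold change −1.13, edgeR adjusted p = 2.64e-05, and log2 fold change −0.68, edgeR adjusted p = 0.0141, the second lost without Tb-DOX 5 at adjusted p = 0.0508), and Cfl2, the muscle cofilin, rose without the tumor (log2 fold change 0.53, edgeR adjusted p = 0.000117).

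Of 30 other genes associated with the Z-disc, I-band and M-band, 28 were tested. Ankrd2 and Myoz1 were at a mean of 0.302 and 0.138 FPKM in Control and 0.392 and 0.15 in Tb-DOX, and reached the minimum of 0.5 through DOX (2.25 and 1.42) and Tb 5 (scaled levels of 32.5 and 4.39). Because their own differences let them into the test, they are left out of the counts. Of the remaining 26, 7 rose and 2 fell without the tumor, 0 were called with it, and 3 had a lower response with the tumor by the interaction test (edgeR). The shares were 26.9% and 7.69% of the 26 without the tumor (beside 18.0% and 18.2% of all genes), 0.0% with it (beside 2.18% and 2.54%) and 11.5% lower in the interaction (beside 5.0%), where DESeq2 called 6 lower and limma on log2(FPKM + 0.1) 1. With the tumor, edgeR gave 1 higher and 6 lower at an unadjusted p under 0.05, DESeq2 called 1 higher and 1 lower and limma called 0. Fhl1, Nrap and Sorbs2, proteins of the I-band and Z-disc, rose without the tumor (log2 fold changes 2.23, 0.91 and 0.53), and the interaction was −2.74 for Fhl1 (adjusted p = 0.0251) and −1.18 for Nrap (adjusted p = 0.0343). The 3 were Fhl1, Nrap and Xirp1, the last named after its values were seen, as were Ankrd2 and Myoz1, and Tb 5 stood far above the other Tb libraries in each. It was at 335 for Fhl1 (33.8 to 46.1 in the others), 256 for Nrap (96.8 to 109.5) and 308 for Xirp1 (20.1 to 30.5).

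Without Tb 5 the interaction was −1.52 for Fhl1 (adjusted p = 0.00145), −0.85 for Nrap (0.0219) and −1.78 for Xirp1 (0.00704). The Nrap interaction was lost without any 1 of Control 2 to 5, DOX 3, DOX 4, Tb-DOX 1 or Tb-DOX 2 (adjusted p 0.0538 to 0.0618). The Tb-DOX against Tb difference of Fhl1 turned from −0.51 to 0.71 without Tb 5 and then passed the test (adjusted p = 0.0181), as the 1 call of the list with the tumor. In that setting 4 of the list were lower in the interaction. Ankrd1, the most abundant of the list, did not pass (log2 fold change 0.42, edgeR adjusted p = 0.307). Of 18 costamere and dystrophin-complex genes, 2 rose and 5 fell without the tumor and 3 rose and 1 fell with it, which was 11.1% and 27.8% of the list (beside 18.0% and 18.2% of all genes) and 16.7% and 5.56% (beside 2.18% and 2.54%). Dtna, a dystrobrevin, rose in both (0.75 and 0.58), and Sspn, sarcospan, fell in both (−0.79 and −0.54, the second lost without Tb 1, 2 or 3 or Tb-DOX 2, 4 or 5). Dysf, a membrane repair protein, fell without the tumor (−0.56), and the most abundant, Itgb1, did not pass.

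Of 14 transcription factors of muscle genes, 4 rose and 1 fell without the tumor, and 2 rose with it. These were 28.6% and 7.14% of the list (beside 18.0% and 18.2% of all genes) and 14.3% with the tumor (beside 2.18%), and without Tb 5 there were 7 that rose and 1 that fell without the tumor. Myocd, the SRF coactivator myocardin, had the smallest adjusted p of the list, at a level of 5.47 ± 0.281 in Control (mean ± SD, n = 5), 14.6 ± 3.20 in DOX (n = 5), 5.30 ± 0.659 in Tb (n = 6) and 8.30 ± 1.08 in Tb-DOX (n = 5). Myocd rose without the tumor (log2 fold change 1.42, edgeR adjusted p = 4.35e-07) and with it (log2 fold change 0.65, edgeR adjusted p = 0.00461), and the rise was smaller with the tumor (interaction −0.77 on the log2 scale, adjusted p = 0.016). Gata6 rose in both (0.65 and 0.48), Mef2a rose without the tumor (0.37), and Hand2, the most abundant, did so too (0.67, lost without DOX 2 at adjusted p = 0.0545). Whether these factors act on the members was not tested.

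Markers of other cells differed in range between the groups. The summed level of 6 leukocyte markers was 85.1 to 113 in Control, 40.2 to 66.0 in DOX, 127 to 199.9 in Tb and 86.9 to 213 in Tb-DOX. The 7 fibroblast markers summed to 243 to 325, 183 to 254, 213 to 271 and 158 to 211 in the same order. The 5 erythroid markers (globins and Alas2) summed to 256 to 1001, 5.29 to 164, 462 to 1044 and 2.86 to 35.0. For 6 atrial markers, of which 5 were present, the sums were 99.6 to 381, 433 to 838, 95.2 to 314 and 164 to 712, higher in all DOX than in all Control libraries. DOX 4 stood apart in 8 lymphocyte and thymocyte markers at 76.3, where the other DOX libraries were at 1.59 to 3.71. These markers summed to 0.416 to 0.705 in Control, 1.28 to 12.9 in Tb (highest in Tb 5) and 1.03 to 3.47 in Tb-DOX. The 11 fast skeletal muscle markers summed to 39.5 to 75.8, 31.2 to 41.8, 32.0 to 54.4 and 24.0 to 34.5, and the 6 endothelial markers to 119 to 146, 102 to 139, 120 to 173 and 110 to 136. The 6 smooth muscle and pericyte markers summed to 188 to 204, 213 to 256, 147 to 233 and 185 to 209, also higher in all DOX than in all Control libraries. The 5 adipocyte markers summed to at most 1.30. The part of these cells in the results on the 37 genes was not tested.

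The results were also read without libraries that stand apart, in a pair of settings chosen after seeing the data. Without DOX 3 and Tb 5, 23 of the 36 genes rose and 3 fell with doxorubicin without the tumor, and 10 rose and 1 fell with it, beside 19.4% and 18.8% of all genes in the same setting without the tumor and 3.33% and 3.62% with it. With Control 3 left out as well, the counts were 24 and 4 without the tumor and 10 and 1 with it, beside 19.4% and 18.2% of all genes and 4.22% and 4.32%. The interaction then called 3 of the 36 in the first setting and 2 in the second, and Tb-DOX against DOX called 17 and 18, all lower, beside 10.1% and 11.1% of all genes called lower. The interaction calls over all genes were 3.08% higher and 3.47% lower in the first setting and 2.93% and 3.32% in the second.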

How the data were processed

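Hearts of 21 mice were profiled by bulk RNA-seq (paired-end reads, total RNA extracted with MagZol). The labels name oligo(dT) beads or rRNA depletion and the study's methods oligo(dT) selection. The authors deposited 1 table with whole-number read counts per gene, and FPKM values that equal the count per kilobase scaled to the library total in 100% of values (tolerance 0.0051). The submitters' processing notes name cutadapt, FastQC, HISAT2, HTSeq 0.6.1, DESeq2 1.34.0 and build GRCm39, without their roles, and strand use in counting was not given in the sources used here. All per-library columns were mapped to samples (0 left out). Depth was 13521200 to 18601445 counts, and the number of libraries limits the precision.

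Counts were tested with edgeR 4.0.16 (R 4.3.3, quasi-likelihood F test, TMM scaling, 4 groups in 1 fit) over 13990 genes with a mean of at least 0.5 FPKM, and p-values were adjusted over all of them (Benjamini-Hochberg). A gene was called at adjusted p under 0.05. Levels are FPKM divided by the TMM factor. Troponin ratios were compared by two-sided exact permutation tests (scipy 1.17.1, 6 tests), which cannot give a p below 0.00794 for 5 against 5 libraries or 0.00433 for 6 against 5. Alternatives were other scalings, filters and thresholds, the groups compared alone, robust moderation, DESeq2 1.42.0, limma 3.58.1, a replicate block and each library left out. The fit was also run on simulated counts with known changes, and the outcome is not given here. Libraries of a group differed beyond sampling noise (lowest chi-square per degree of freedom 5.33), so none was counted as a repeat. Libraries were taken as separate animals as labelled, and the p-values measure the spread between them.

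The members and lists were chosen with earlier results of these data known. Values of every library (for the 6 Tb libraries, the lowest, the median and the highest) are given for up to 12 called members with the largest absolute log2 fold change in each doxorubicin comparison, the called members of the interaction and of Tb against Control, and the most abundant member of each role, and of each other list the 3 smallest adjusted p in DOX against Control and the most abundant gene are named. Further members are named to account for each of the 37, and values of some of these were added after they were seen.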

Additional observations from a re-analysis of the deposited data

Results flagged for a closer look

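For 23 members described by library, 92 sets of libraries were tested for a single value far from the rest (Dixon's test), and 14 passed. Ttn and Tnnt1, also described by library, were not among the 23. The sets share the same libraries and are not independent. The 14 can therefore not be set against the 1 in 20 that chance gives for a single set. Control 3 held 6 of the 14 as the highest of its group. Its level was 2192 for Tnnt2, where the next Control library was at 1437, 834 for Mybpc3 (next 723), 2761 for Myl3 (next 2120.0), 4584 for Myl2 (next 3361), 2819 for Tnnc1 (next 1913) and 47.4 for Unc45b (next 36.3). Tb 5 held 4, at 201 for Synpo2l (next 39.2), 580.3 for Csrp3 (next 272), 459 for Des (next 337) and 784 for Lmod2 (next 489). The others were Myoz2 at 249.8 in Tb 6, the lowest of its group (next 309), Myom3 at 1.06 in Control 1 (next 0.773), Myom1 at 127 in DOX 3, the lowest of its group (next 191), and Dmd at 7.01 in Tb-DOX 5 (next 6.11).

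The response to doxorubicin differed with the tumor for 4 members by the edgeR interaction test, at −0.65 on the log2 scale for Myoz2, −1.06 for Csrp3, −2.56 for Synpo2l and 0.955 for Obsl1. The shares called higher and lower were 2.78% and 8.33% of the 36 genes, beside 3.95% and 5.0% of all genes tested. At adjusted p under 0.01, 0 of the 36 passed. The Obsl1 call was lost without any 1 of 14 libraries and the Synpo2l call without any 1 of 7.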

How the results depend on the processing

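Of 26 results on single members, each under other settings and with each library left out, 803 of 879 values kept their direction and side of the threshold, 76 lost the call and 0 reversed. The 26 held the 12 calls of DOX against Control with the largest absolute log2 fold change. They also held every call of Tb-DOX against Tb, the interaction and Tb against Control. Other calls were not counted, such as Ttn in DOX against Control (lost without any 1 of 17 libraries) and Dmd in Tb-DOX against DOX (8). The libraries left out included those of groups not compared. In settings that leave out no single library, the call was lost in 7 for Unc45b (Tb against Control), 6 for the Synpo2l interaction, 2 each for Synpo2l (DOX against Control), Mybpc3 and Myl3 (Tb-DOX against Tb), Dmd (Tb against Control) and the Obsl1 interaction, and 1 each for Myom1 and Myom2 (Tb-DOX against Tb) and the Csrp3 interaction (replicate block, adjusted p = 0.0501). Of the 36 genes, DOX against Control called 13 at adjusted p under 0.01 and 2 with a fold change of 2 or more (21 as reported). Tb-DOX against Tb called 1 and 0 in these settings (8 as reported), the interaction 0 and 2 (4 as reported), Tb against Control 0 and 0 (2 as reported), and Tb-DOX against DOX 1 with that fold (9 as reported). Tb against Control called 1 with library totals, 1 with only the groups compared, 4 by DESeq2, 0 by limma on log2(FPKM + 0.1) and 1 on log2(FPKM + 1). With 1 library left out, the counts were 17 to 24 for DOX against Control, 3 to 10 for Tb-DOX against Tb (3 without Tb-DOX 5, 4 without Tb-DOX 3), 2 to 4 for the interaction (2 without Control 2, 4 or 5, DOX 3, or Tb-DOX 1 or 3), 0 to 3 for Tb against Control (0 without Tb 4, 5 or 6) and 6 to 12 for Tb-DOX against DOX. In the pair of settings chosen after seeing the data, the interaction called 2 without Control 3, DOX 3 and Tb 5, and Tb-DOX against DOX called 18 without these and 17 without DOX 3 and Tb 5. The causes were not tested.

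The Tnni1 to Tnni3 ratio differed by 0.225 (DOX against Control) and 0.109 (Tb-DOX against Tb) with 1 added to each FPKM, short of the threshold. With 0.5 added to each count it differed by 2.16 and 1.715, past the threshold (adjusted exact p = 0.0238). With 1 library left out it differed by 0.95 to 1.23 and 0.89 to 1.09. In Tb against Control it ranged from −0.09 to 0.19 and turned sign without Control 2 (−0.0923), Tb 5 (−0.0433) or Tb 6 (−0.0364). The Tnnt1 to Tnnt2 ratio ranged from −0.68 to −0.38 in DOX against Control, −0.50 to −0.24 in Tb-DOX against Tb and −0.32 to −0.06 in Tb against Control.

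Replicate numbers did not pair the libraries (correlation of same-numbered libraries' deviations −0.234 to 0.21). With the replicate block, 22 of the 36 were called in DOX against Control, 5 in Tb-DOX against Tb, 1 in the interaction, 0 in Tb against Control and 8 in Tb-DOX against DOX. Depth limits Tnni1, at 0 to 22 counts per library.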
